A study of Mus musculus with 44 samples.

Results

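Transcripts of 8 genes of nitric oxide and cGMP signalling were followed in ribosome-bound mRNA of Emx1-lineage hippocampal cells from mice with and without early-life exercise (ELE). The 8 genes were taken by symbol from the 55335 genes of the count table. They are the nitric oxide synthases Nos1 and Nos3, the Nos1 partner Nos1ap, the soluble guanylate cyclase subunit gene Gucy1a2, the cGMP-dependent kinases Prkg1 and Prkg2, and the phosphodiesterases Pde2a and Pde5a. All 8 passed the filter on low counts in every comparison. The panel was chosen by measured values of these same libraries, chiefly the exercise difference of Nos1 in the right hippocampus and its contrast with the left. These values of Nos1 are therefore described without a test, and so are those of the other members on the right.

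Nitric oxide is a gas made from arginine by the nitric oxide synthases and acts on neighbouring cells without a vesicle. Its main receptor is soluble guanylate cyclase, a dimer of an alpha and a beta subunit that makes the second messenger cGMP, which in turn activates the protein kinases encoded by Prkg1 and Prkg2 and is broken down by phosphodiesterases. In the hippocampus the pathway is known for its part in synaptic plasticity, with the neuronal synthase Nos1 held near NMDA receptors at the synapse and abundant in a class of interneurons, and with the endothelial synthase Nos3 found in vessel walls.

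All mice were Emx1-NuTRAP, a cross of an Emx1-IRES-Cre line with the NuTRAP reporter, in which cells that have expressed Emx1 carry tagged ribosomes and a tagged nuclear envelope. Emx1 marks the lineage of forebrain excitatory neurons, and that lineage also yields some glia. ELE mice had running wheels from postnatal day 21 to day 41, sedentary mice had none, and hippocampi were taken on the following day. In simultaneous isolation (SIT), both hippocampi of a mouse were combined and gave nuclei and ribosome-bound RNA from 1 homogenate, with 4 ELE and 4 sedentary mice. In separate isolation, 1 hippocampus of a mouse gave RNA and the other gave nuclei, with 3 ELE and 3 sedentary mice for the left and 3 ELE and 3 sedentary mice for the right, so left and right libraries came from different mice. The study compared 5 of the 8 SIT libraries, those of ELE mice NT6.303, TG7.4.1 and TG7.4.2 and of sedentary mice NT6.305 and NT6.306. It left out ELE mouse NT6.304 and a sedentary pair, NT7.2.3 and NT7.2.4. SIT values are given for the 5 libraries and then for all 8. Of the SIT mice, those with numbers starting NT6 were from both conditions, those starting TG7.4 were ELE and those starting NT7.2 sedentary. What the start of a number stands for is not given in the sources used here.

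Libraries held between 45895097 and 65767802 counts. The summed level of 8 excitatory neuron markers lay between 10176 and 14035 CPM (counts scaled to a common library size by the TMM method) in all 20 libraries, and that of 8 astrocyte markers between 1709 and 5384 CPM. The NT7.2 pair stood apart. Mitochondrial genes made up 8.64% (NT7.2.3) and 9.64% (NT7.2.4) of all counts, against at most 0.523% in any other library. The sum of 14 interneuron markers was 1381 and 1414 CPM in that pair, 989 CPM in ELE mouse NT6.304, 555 CPM in left ELE mouse TG9.1.4, and between 192 and 329 CPM in the others. Such a sum can rest on 1 gene, as Npy had a median of 4.78 CPM and a highest level of 776 CPM over the 20 libraries. In the NT6 mice the median log2 fold change of the 14 markers, ELE over sedentary, was -0.50. The 7 microglial markers summed to 201 and 208 CPM in the NT7.2 pair, against at most 14.6 CPM elsewhere.

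The members spanned a wide range of levels. Per kilobase of exon, Nos1ap had the highest median over the 20 libraries at 10.8 CPM per kb, followed by Nos1 at 9.13, Pde2a at 2.57, Prkg1 at 1.44, Gucy1a2 at 0.80, Prkg2 at 0.47, Nos3 at 0.148 and Pde5a at 0.135 CPM per kb. Neighbours in this order kept it within a library in 19 of 20 libraries for Nos1ap and Nos1, 14 for Pde2a and Prkg1, 14 for Gucy1a2 and Prkg2, and 11 for Nos3 and Pde5a. The libraries with Prkg1 above Pde2a were all SIT libraries. Nos1 and Pde2a were the neighbours whose ranges did not overlap. Libraries held 3434 to 7649 counts of Nos1, 2877 to 5723 of Nos1ap and 13 to 89 of Nos3, so the endothelial synthase and Pde5a were measured with the least precision.

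Nos1, the neuronal nitric oxide synthase, lies on chr5:117781032-117958840 (GRCm38, plus strand). In the right hippocampus its level was 68.5, 68.2 and 67.3 CPM in ELE mice TG7.3.1, TG9.1.3 and TG9.2.1. In sedentary mice it was 106 CPM in TG7.3.3, 99.1 CPM in TG9.1.1 and 110 CPM in TG9.2.3. The ELE libraries thus lay below every sedentary right library, as 3.89% of the genes tested there did, with means of 68.0 ± 0.664 against 105 ± 5.38 CPM (SD, n = 3 each) and a log2 fold change of -0.63 ± 0.083 (SE). The spread of the ELE libraries was below the 1.10 CPM that counting error gives at this depth.

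In the left hippocampus Nos1 was 117, 115 and 87.3 CPM in ELE mice TG7.3.2, TG9.1.4 and TG9.2.2. It was 108 CPM in sedentary mouse TG7.3.4, 109 CPM in TG9.1.2 and 101 CPM in TG9.2.4. The ELE libraries fell on either side of the sedentary ones, with a log2 fold change of 0.0024 ± 0.116 (SE). In 1 fit of the 12 separately isolated libraries, the exercise change of Nos1 on the right minus that on the left was -0.63 ± 0.143 (SE). Right and left differed by -0.01 ± 0.101 in sedentary mice and by -0.64 ± 0.101 in ELE mice on the log2 scale. Every ELE library from the right lay below every library from the left. This side contrast helped choose Nos1, and the share of all genes with that order was not counted.

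The hemisphere of these libraries rests on a list of mouse numbers. The columns of the count table carry mouse numbers, which the study's list of sequenced mice assigns to left or right. Read in the order of the sample labels instead, the columns would keep their exercise group in 20 of 20 libraries and would exchange left for right in all 12 separately isolated libraries. The order was not used. The sizes of the differences do not depend on this, and the names left and right do.

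**Figure D1:**
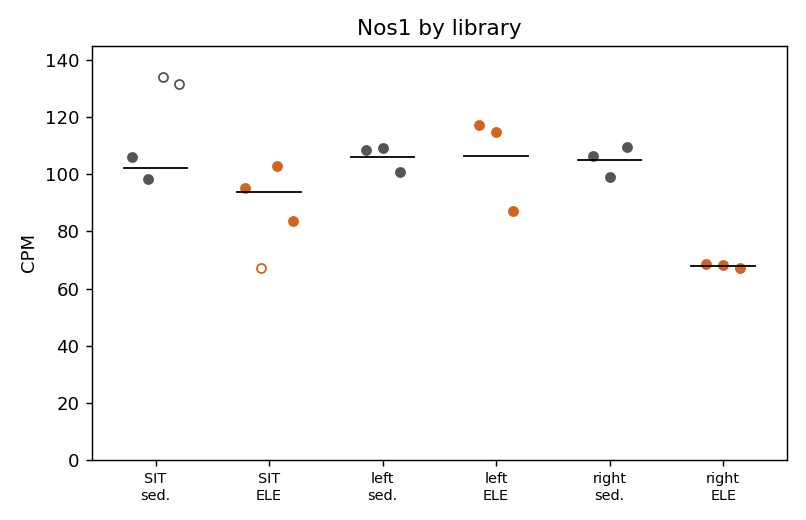
Nos1 level in CPM in each of the 20 libraries, by isolation, hemisphere and exercise (grey sedentary, orange ELE). Lines are group means without the 3 SIT libraries that the study left out, which are drawn as open circles. The right ELE libraries sit between 67.3 and 68.5 CPM, and left and right sedentary libraries between 99.1 and 110 CPM.

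In SIT libraries Nos1 was 95.1 CPM in ELE mouse NT6.303, 103 CPM in TG7.4.1 and 83.8 CPM in TG7.4.2, against 106 CPM in sedentary mouse NT6.305 and 98.3 CPM in NT6.306. These ranges overlapped, with a log2 fold change of -0.12 ± 0.114 (SE) and an adjusted p of 0.992 in edgeR's quasi-likelihood test, Benjamini-Hochberg adjusted over all genes. The libraries left out were more extreme, with 67.2 CPM in ELE mouse NT6.304 and with 134 and 132 CPM in the NT7.2 pair. With all 8 libraries the log2 fold change was -0.42 ± 0.158 (adjusted p = 0.490, edgeR). Without the NT7.2 pair and with NT6.304 kept it was -0.23 ± 0.168. The highest Nos1 levels of the series thus stood in the pair with the highest interneuron marker sums. The lowest stood in NT6.304, with the next highest sum. That sum need not stand for all 14 markers, whose median log2 fold change in the NT6 mice was -0.50. The part of interneuron RNA in the Nos1 values was not tested.

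On the right, 5 of 6 choroid plexus markers tested were called lower in ELE, as were 4 of 10 endothelial markers, while interneuron markers were not called lower. The sum of 14 interneuron markers was between 283 and 320 CPM in ELE and between 271 and 329 CPM in sedentary libraries, so these ranges overlapped, with Slc32a1 called higher in ELE and the other 12 tested not called. The sum of 7 choroid plexus markers was between 17.3 and 43.7 CPM in ELE and 35.9, 84.9 and 1172 CPM in sedentary mice TG7.3.3, TG9.1.1 and TG9.2.3. The 10 endothelial markers summed to between 4.41 and 6.63 CPM in ELE libraries and to 39.8, 5.83 and 7.34 CPM in the same sedentary mice, so 1 sedentary library was far above the ELE range and 1 lay within it. The part of these cell types in the Nos1 difference was not tested.

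Nos1ap encodes an adaptor protein that binds the neuronal synthase and lies on chr1:170302668-170589861 (minus strand). In the SIT libraries that the study compared it was 67.0, 73.0 and 68.2 CPM in ELE mice NT6.303, TG7.4.1 and TG7.4.2, and 55.3 and 64.0 CPM in sedentary mice NT6.305 and NT6.306. The ELE libraries lay above the sedentary ones, as 10.4% of the genes tested did, with a log2 fold change of 0.22 ± 0.114 (SE, adjusted p = 0.932, edgeR). The libraries left out held 101 CPM in ELE mouse NT6.304 and 110 and 95.9 CPM in NT7.2.3 and NT7.2.4, and with all 8 the log2 fold change was -0.06 ± 0.227. Nos1ap overlapped between groups in the left hippocampus, with 75.0 to 92.1 CPM in ELE and 66.7 to 91.3 CPM in sedentary libraries, and in the right, with 79.5 to 97 and 74.3 to 89.5 CPM. On the right, where values are described without a test, the log2 fold change was 0.10 ± 0.108 for Nos1ap and -0.63 ± 0.083 for Nos1 (SE). The difference between these genes was not tested.

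Nos3, the endothelial synthase, lies on chr5:24364810-24384474 (plus strand) and was close to the limit of detection. It was 0.565, 0.628 and 1.94 CPM in right sedentary mice TG9.1.1, TG9.2.3 and TG7.3.3, and 0.718, 0.382 and 0.230 CPM in right ELE mice TG7.3.1, TG9.1.3 and TG9.2.1. The groups overlapped, and the log2 fold change of -1.23 ± 0.650 (SE) was -0.43 without TG7.3.3. That mouse had the highest Nos3 level of the series together with the highest endothelial marker sum, 39.8 CPM. The NT7.2 pair had endothelial sums of 28.5 and 30.6 CPM with Nos3 at 0.926 and 0.455 CPM, within the range of the other libraries. In the remaining libraries the endothelial sum was between 4.09 and 8.99 CPM. Endothelial sums thus stood apart in TG7.3.3 and the NT7.2 pair, while Nos3 was at most 1.94 CPM in any library. The part of endothelial RNA in the Nos3 values was not tested.

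Nos3 did not pass the thresholds in the SIT libraries (log2 fold change -0.70 ± 0.752, adjusted p = 0.992) or in the left hippocampus (0.34 ± 0.505, adjusted p = 0.966, both by edgeR). For exercise and for isolation, called means a p below 0.05 before adjustment together with a log2 fold change beyond 0.39 in either direction. Among the genes that passed the filter on low counts, 0 had an adjusted p below 0.05 in SIT, left or right (edgeR), against 1000, 699 and 488 with an unadjusted p below 0.05. DESeq2 gave 14, 0 and 14 genes at that adjusted p, and edgeR without the filter 105, 0 and 27.

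**Figure D2:**
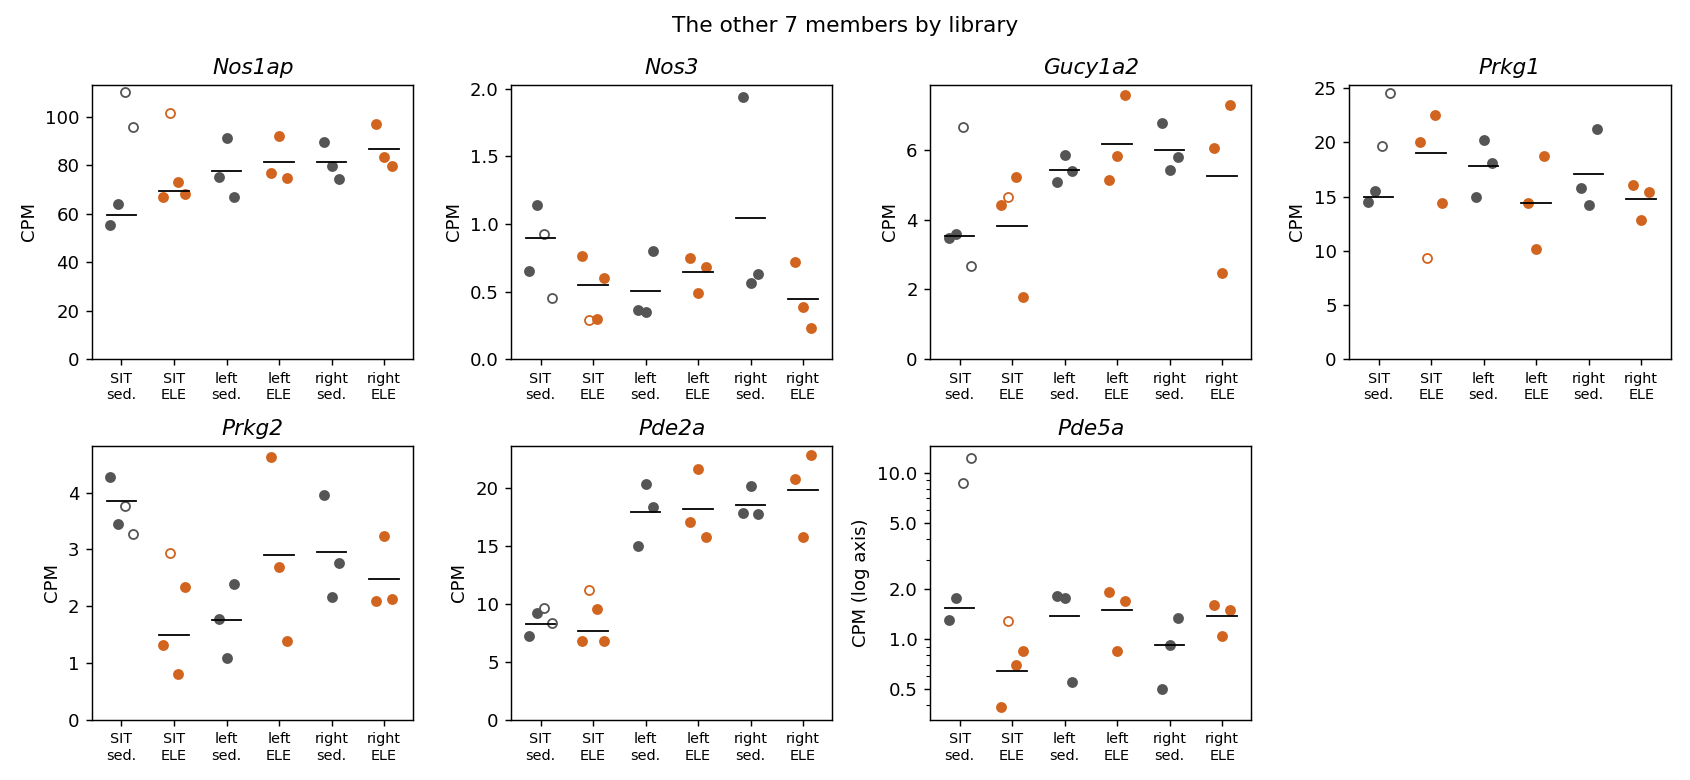
Level in CPM of the other 7 members in each library, by isolation, hemisphere and exercise (grey sedentary, orange ELE, open circles the SIT libraries that the study left out, lines the group means without them). Pde5a is on a log axis. Prkg2 in SIT is at most 2.93 CPM in ELE and at least 3.28 CPM in sedentary libraries, and Pde2a is at most 11.2 CPM in SIT and at least 15 CPM in separate isolation.

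Gucy1a2 encodes an alpha subunit of soluble guanylate cyclase and lies on chr9:3532778-3894736 (plus strand). It ranged from 5.14 to 7.57 CPM in left ELE and from 5.07 to 5.84 CPM in left sedentary libraries (log2 fold change 0.18 ± 0.190, adjusted p = 0.960, edgeR). On the right it was 6.05, 2.46 and 7.28 CPM in ELE mice TG7.3.1, TG9.1.3 and TG9.2.1, against 5.43 to 6.77 CPM in sedentary mice, with a log2 fold change of -0.19 ± 0.332. In SIT libraries it was 4.42, 5.22 and 1.79 CPM in ELE mice NT6.303, TG7.4.1 and TG7.4.2, against 3.48 and 3.57 CPM in sedentary mice. Groups overlapped in each comparison, and in SIT and on the right a library of the ELE group was the lowest.

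The kinase Prkg2 was the member called in the SIT libraries, the only 1 of 8, against 2.11% of all genes called lower and 3.65% called in either direction. Prkg2 lies on chr5:98929773-99037351 (minus strand) and encodes the membrane-bound type II cGMP-dependent kinase. It was 1.32 CPM in ELE mouse NT6.303, 0.809 CPM in TG7.4.1 and 2.33 CPM in TG7.4.2, and 4.27 and 3.44 CPM in sedentary mice NT6.305 and NT6.306. All ELE libraries lay below the sedentary ones, as 11.8% of genes did, and Prkg2 fell by 1.37 ± 0.439 on the log2 scale (SE, unadjusted p = 0.0106, adjusted p = 0.905, edgeR). The libraries left out kept this order, with 2.93 CPM in ELE mouse NT6.304 and 3.76 and 3.28 CPM in NT7.2.3 and NT7.2.4. With all 8 libraries Prkg2 fell by 0.98 ± 0.385 (adjusted p = 0.499, edgeR). Over all alternatives for SIT its adjusted p was between 0.151 and 1.0.

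Within the NT6 mice, which held both conditions, the Prkg2 difference was -0.85 ± 0.470 and did not pass the thresholds, and it was also lost without sedentary mouse NT6.305 (-1.21) or with all SIT libraries but the NT7.2 pair (-1.06). Other markers changed in the same 5 libraries. Of 6 dentate granule cell markers, Prox1, Dsp and Pdzd2 were called higher in ELE, of 7 choroid plexus markers 4 were called lower, and of 14 interneuron markers Dlx1, Dlx2 and Pvalb were called lower. Their part in the Prkg2 result was not tested. As in any bulk sample, fewer cells of a type and less RNA per cell cannot be told apart.

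On the left Prkg2 had the opposite sign to SIT, and on the right the same sign with a smaller size. On the left it was 4.63, 2.69 and 1.38 CPM in ELE mice TG7.3.2, TG9.1.4 and TG9.2.2, against 1.77, 1.09 and 2.39 CPM in sedentary mice TG7.3.4, TG9.1.2 and TG9.2.4. These libraries overlapped, with a log2 fold change of 0.73 ± 0.460 (SE, adjusted p = 0.960, edgeR). Without TG9.2.2, the ELE library with the lowest level, Prkg2 was called higher at 1.06 and Prkg1 lower at -0.54. On the right Prkg2 was 2.10 to 3.24 CPM in ELE and 2.16 to 3.95 CPM in sedentary libraries, with a log2 fold change of -0.25 ± 0.303. The difference between the SIT and left changes was not tested.

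Prkg1 encodes the type I cGMP-dependent kinase and spans chr19:30564489-31765033 (minus strand). It lay between 9.28 and 24.5 CPM over the 20 libraries. In SIT it was 20.1, 22.5 and 14.4 CPM in ELE mice NT6.303, TG7.4.1 and TG7.4.2, against 14.5 and 15.5 CPM in sedentary mice (log2 fold change 0.34 ± 0.203, adjusted p = 0.951, edgeR). With all 8 libraries the sign turned to -0.15 ± 0.273, with NT6.304 the lowest at 9.28 CPM and NT7.2.4 the highest at 24.5 CPM. The log2 fold change was -0.30 ± 0.220 on the left (adjusted p = 0.960, edgeR) and -0.21 ± 0.173 on the right, where the groups overlapped. The kinase genes thus differed in sign from each other in the 5 SIT libraries and on the left. Prkg1 was not called in these comparisons, but it was called higher in SIT without TG7.4.2 (0.50 ± 0.15) and lower on the left without TG9.2.2 (-0.54 ± 0.201).

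**Figure D3:**
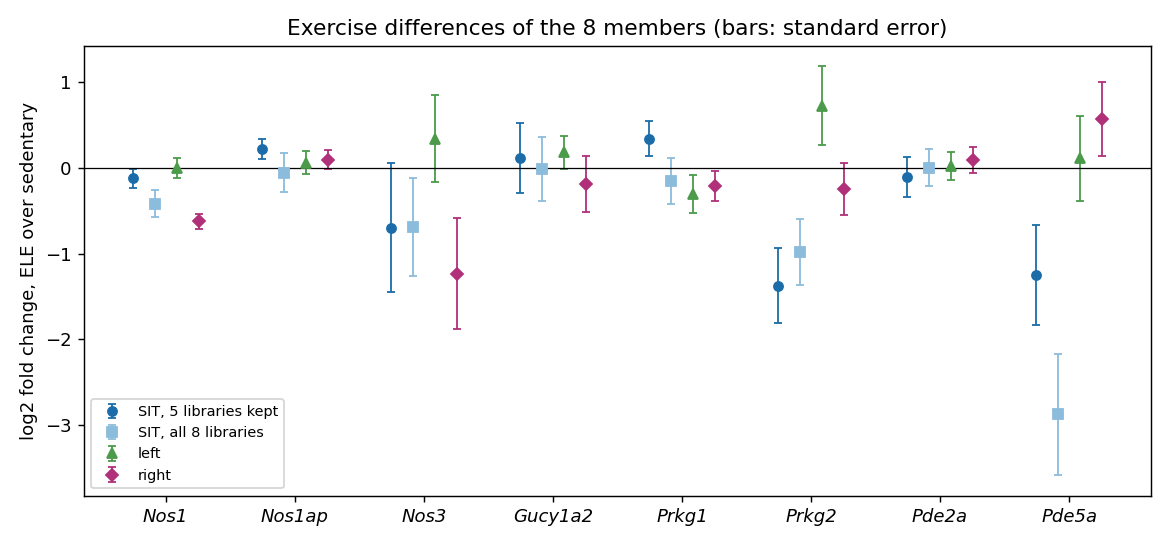
Log2 fold change of ELE over sedentary libraries for each member, with its standard error, in SIT (5 libraries, and all 8), left and right hippocampus. Nos1 is at -0.63 on the right and 0.0024 on the left, Prkg2 at -1.37 in SIT and 0.73 on the left, and Pde5a at -2.88 when all 8 SIT libraries are compared.

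Pde5a encodes a cGMP-specific phosphodiesterase best known from vascular smooth muscle and lies on chr3:122728947-122859374 (plus strand). It was 8.66 and 12.2 CPM in the sedentary NT7.2 pair, from 449 and 671 counts, and between 0.390 and 1.92 CPM in the other 18 libraries. In the 5 SIT libraries that the study compared it was 0.390, 0.698 and 0.847 CPM in ELE mice NT6.303, TG7.4.1 and TG7.4.2, and 1.31 and 1.76 CPM in sedentary mice NT6.305 and NT6.306. The ELE libraries lay below the sedentary ones, as 11.8% of genes did, with a log2 fold change of -1.25 ± 0.585 (SE, unadjusted p = 0.0587, adjusted p = 0.910, edgeR), which did not pass the thresholds. With all 8 libraries it was called lower in ELE at -2.88 ± 0.710 (unadjusted p = 0.0020, adjusted p = 0.403, edgeR), beside Nos1 and Prkg2. There 3 of 8 members were called lower, against 5.41% of genes. The panel was chosen with earlier results of these data known, chiefly those of Nos1, so this count is a description and no test. Its adjusted p over the alternatives for SIT ran from 0.0436 to 0.9998. The lowest came from edgeR with all 6 groups in 1 fit, which also held all 8 SIT libraries.

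The NT7.2 pair set the size of this difference. Without it and with NT6.304 kept, Pde5a was at -0.93 ± 0.554 and no member was called. The pair also held the highest sums of interneuron markers (1381 and 1414 CPM), microglial markers (201 and 208 CPM) and pericyte and smooth muscle markers (79.0 and 82.1 CPM, against 22.3 to 60.9 CPM elsewhere). With all 8 libraries, 12 of 14 interneuron markers and 7 of 7 microglial markers were called lower in ELE. Their part in the Pde5a level was not tested. NT6.304, with an interneuron sum of 989 CPM and a microglial sum of 14.6 CPM, had Pde5a at 1.3 CPM, within the range of the other libraries. Its interneuron sum need not stand for all 14 markers, whose median log2 fold change in the NT6 mice was -0.50.

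In separate isolation Pde5a was 0.846 to 1.92 CPM in left ELE and 0.555 to 1.82 CPM in left sedentary libraries (log2 fold change 0.11 ± 0.50, adjusted p = 0.989, edgeR). On the right it was 1.04 to 1.60 CPM in ELE and 0.502 to 1.35 CPM in sedentary libraries, with a log2 fold change of 0.57 ± 0.436. The groups overlapped on both sides.

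**Figure D4:**
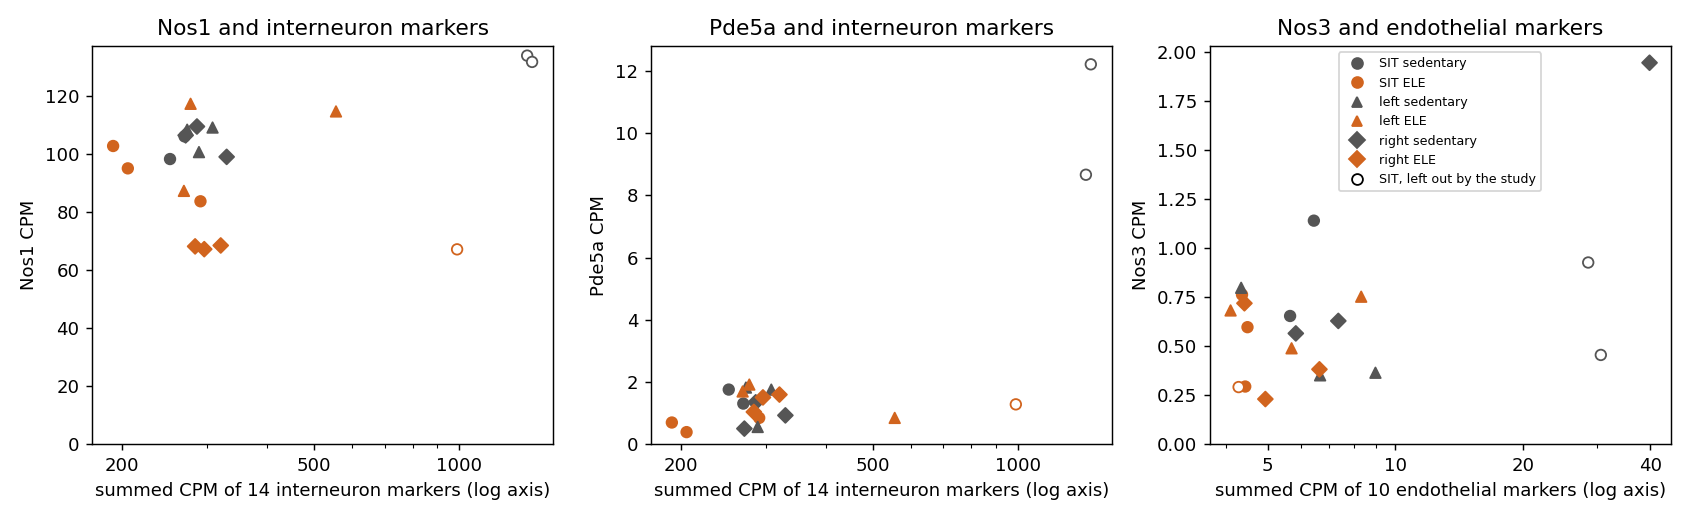
Level of Nos1 and Pde5a against the summed level of 14 interneuron markers, and of Nos3 against that of 10 endothelial markers, in CPM, with 1 point per library (grey sedentary, orange ELE; circles SIT, triangles left, diamonds right; open circles the SIT libraries that the study left out). Pde5a exceeds 1.92 CPM in the 2 libraries with interneuron sums of 1381 and 1414 CPM, and Nos3 is highest, at 1.94 CPM, in the library with an endothelial sum of 39.8 CPM.

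Pde2a, a phosphodiesterase that cGMP itself activates and that also degrades cAMP, lies on chr7:101421691-101512827 (plus strand) and differed with the isolation method. It was between 6.76 and 11.2 CPM in the 8 SIT libraries and between 15 and 22.8 CPM in the 12 separately isolated ones, so the ranges did not overlap. Of all genes tested, 1.46% lay entirely lower in SIT in this way. In a fit of isolation and exercise over the 17 libraries without the 3 left out, Pde2a was lower in SIT by 2.35-fold, with a log2 difference of -1.23 ± 0.119 (SE, adjusted p = 4.69e-07, edgeR). The difference was -1.14 ± 0.149 in sedentary and -1.31 ± 0.174 in ELE libraries, and its adjusted p was at most 0.00149 over the 23 alternatives. This comparison was added after the levels had been seen.

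The isolation comparison called 2 of the 8 members, both lower in SIT, against 9.52% of genes called lower and 14.4% called in either direction. Besides Pde2a this was Gucy1a2 (-0.63 ± 0.222, adjusted p = 0.0430, edgeR, with 0.00588 to 0.355 over the alternatives), which was not called in ELE libraries alone (-0.59). Nos1ap was also lower in SIT, at -0.33 ± 0.076 (adjusted p = 0.00295, edgeR), below the fold threshold, where 25.5% of genes had an adjusted p under 0.05, and with all 20 libraries it was at -0.04. Nos1 differed by 0.05 ± 0.113 between the isolations (adjusted p = 0.818, edgeR), and its range of levels in SIT, 67.2 to 134 CPM, held that in separate isolation, 67.3 to 117 CPM. The isolation methods also differed in tissue, both hippocampi against 1, and in the numbers of the mice, and these cannot be told apart. Mitochondrial genes took 0.195% to 0.523% of counts in the SIT libraries outside the NT7.2 pair and 0.0704% to 0.122% in the separately isolated ones. The sum of 5 CA1 pyramidal neuron markers was 684 to 849 CPM in SIT and 789 to 987 CPM in separate isolation. Their part in the differences of Pde2a, Gucy1a2 and Nos1ap was not tested. The genes that overlap Pde2a on its strand, Gm45837 and Mir139, held at most 2 and 0 counts in any library. Among the other members, Nos1ap overlaps Gm7694 on its own strand (54 to 295 counts) and Prkg2 the pseudogene Gm3470 (0 to 27 counts). On the opposite strand, Prkg1 overlaps Cstf2t (4392 to 6060 counts, against 478 to 1348 for Prkg1) and Nos3 overlaps Atg9b (108 to 441 counts, against 13 to 89 for Nos3). Counting took strand into account. In the counting mode used, reads in exons shared by genes of the same strand can be counted for neither. Low counts of Gm45837 therefore cannot show whether Pde2a lost reads, which was not tested.

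Exercise left Pde2a within the spread between mice. Its log2 fold change was -0.10 ± 0.236 in the 5 SIT libraries (adjusted p = 0.999), 0.02 ± 0.162 on the left (adjusted p = 0.995, both by edgeR) and 0.10 ± 0.154 on the right. No member was called on the left, where 2.07% of genes were. The right served to choose the panel, and nothing is read from calls of members there. The median log2 fold change of the 8 members was -0.11 in SIT, 0.09 on the left and -0.20 on the right, against 0.0012, 0.0035 and -0.0049 over all genes tested.

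The rest of the pathway was followed in a list of 76 further genes, of which 59 passed the filter on low counts in the 5 SIT libraries and 60 on either side. In SIT 3 of 59 were called, all lower in ELE. Gucy1a1, the other alpha subunit of soluble guanylate cyclase, fell by 0.44 ± 0.159 on the log2 scale, with 14.7, 18.1 and 15.7 CPM in ELE mice NT6.303, TG7.4.1 and TG7.4.2 and 22.7 and 21.0 CPM in sedentary mice NT6.305 and NT6.306. Asl, an enzyme that makes arginine, fell by 0.61 ± 0.242. Ngb, which encodes neuroglobin, a globin that can bind nitric oxide, fell by 1.02 ± 0.356. Their adjusted p was 0.905 each (edgeR). No gene was called among 13 synthase partners and regulators, 10 phosphodiesterases, 5 genes of tetrahydrobiopterin supply, 8 kinase substrates or 7 membrane guanylate cyclases and natriuretic peptides.

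With all 8 SIT libraries 7 of 58, or 12.1%, were called, again all lower in ELE, against 5.41% of all genes called lower. In the same comparison, which includes the NT7.2 pair, 12 of 14 interneuron, 7 of 7 microglial and 6 of 7 tested endothelial markers were called lower, and their part in these calls was not tested. Gucy1a1 was among them and fell by 0.87 ± 0.234, with all ELE libraries (8.80 to 18.1 CPM) below all sedentary ones (21.0 to 34.8 CPM), an order found in 2.65% of genes. The others were the phosphodiesterases Pde1c, Pde3a and Pde11a, the natriuretic peptide gene Nppc, the potassium channel gene Kcnma1 and the exporter gene Abcc5, with log2 fold changes between -1.15 and -0.42. In the 4 NT6 mice Gucy1a1 fell by 0.89 ± 0.282. In that comparison 8 of 58 were called, with Cav1 (1.59) and Rgs2 (1.56) higher and Gucy1a1, Cygb (-1.10), Ngb (-2.05), Npr1 (-0.99), Nppc (-1.0) and Pde6h lower, the last of them with 0 and 1 counts in ELE and 16 and 19 in sedentary libraries. Of all genes, 6.65% were called in these 4 libraries.

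On the left 2 of 60 were called, both lower in ELE. Asl fell by 0.51 ± 0.173, with 6.3, 4.76 and 6.17 CPM in ELE mice TG7.3.2, TG9.1.4 and TG9.2.2 below 7.22, 8.72 and 8.63 CPM in sedentary mice TG7.3.4, TG9.1.2 and TG9.2.4, an order found in 5.43% of genes. Pde1c fell by 0.53 ± 0.221. Both had an adjusted p of 0.960 (edgeR). On the right 1 of 60 was called, Pde11a at -0.64 ± 0.235 (adjusted p = 1.0, edgeR), whose groups overlapped. On each side the count was near the share of all genes called, 3.33% against 2.07% on the left and 1.67% against 1.97% on the right. The count in SIT was 5.08% against 3.65%.

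**Figure D5:**
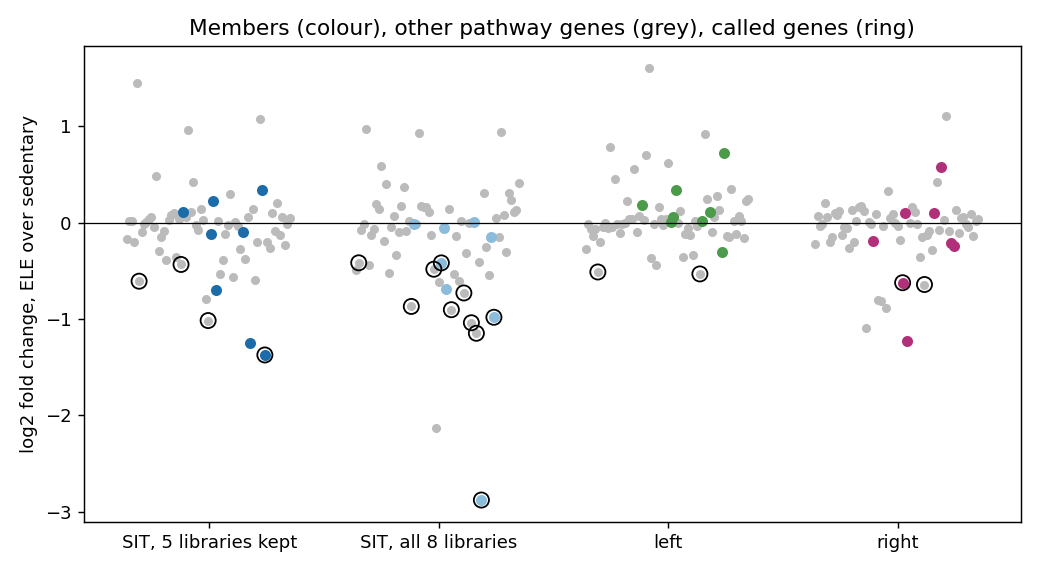
Log2 fold change of ELE over sedentary libraries for the 8 members (colour) and the other tested genes of the pathway list (grey), spread along each column in alphabetical order. Rings mark the genes called, which lie below 0 in each of the 4 comparisons drawn. On the right they include Nos1, whose values there helped choose the panel, so nothing is read from that ring. The SIT comparisons share libraries, so their rings are not independent. In the NT6 mice, which are not drawn as a comparison, 2 other pathway genes were called higher and 6 lower.

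Across the 12 separately isolated libraries, the genes with log2 levels most like those of Nos1, among 14123 with a mean of at least 1 CPM, were Igfbp7 (Pearson's r = 0.94), Lrrk2 (0.89), Stk32b (0.88), Tshz1 (0.88) and Ero1l (0.88). The most opposite were 4921539H07Rik (-0.90), Srsf11 (-0.87), Gabbr1 (-0.85), Idi1 (-0.84) and Magee1 (-0.83). These values describe libraries that share the right ELE group as their low end for Nos1 and carry no p. In the 8 SIT libraries r was 0.15 for Igfbp7, -0.29 for Lrrk2, 0.66 for Stk32b, -0.20 for Tshz1 and 0.03 for Ero1l. It was -0.35 for 4921539H07Rik, 0.71 for Srsf11, -0.58 for Gabbr1, 0.33 for Idi1 and 0.95 for Magee1, so 2 of the 5 most opposite genes kept their sign. Among members, Nos1 and Nos1ap had r = -0.19 over the 12 and 0.17 over the 8 libraries.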

How the data were processed

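Ribosome-bound mRNA from hippocampi of Emx1-NuTRAP mice was sequenced with a stranded kit. Per the labels and the study's methods, the authors checked reads with FastQC 0.11.9, aligned them with STAR 2.7.3a to GRCm38, removed duplicates with Picard 1.87 and counted them on exons with strand taken into account, and the deposited values are raw whole-number counts. Removal of duplicates can lower the counts of highly expressed genes most. Columns carry mouse numbers, which were assigned to groups with the study's list of sequenced mice. A table of wild-type hippocampus, with 24 columns whose names match no label, was not used.

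Symbols, positions and exonic lengths came from a GENCODE release for GRCm38, matching 54587 of 55335 versioned identifiers, or 55154 once versions were ignored. The SIT libraries that the study compared were identified from the mean normalized counts it lists (633 of 633 genes matched, and 1 for the next best subset). Levels are CPM with 1 TMM scaling over the 20 libraries. Each comparison of ELE with sedentary libraries was fitted on its own libraries with filterByExpr, TMM and the quasi-likelihood test of edgeR 4.0.16 (R 4.3.3), and p-values were Benjamini-Hochberg adjusted over all genes tested. Standard errors were computed as the size of the log2 fold change over the square root of F. Calls required a p below 0.05 before adjustment and a log2 fold change beyond 0.39 in either direction, rounded from the threshold in the study's methods.

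The members, the pathway and marker lists and the tests were chosen with earlier results of these data known. The genes named are the 8 members, the other pathway genes called in a comparison (at most 8 each, by smallest p), and the 5 genes with the highest and the 5 with the lowest correlation with Nos1, with a prior count of 0.5 in the log2 levels. The comparison of SIT with separate isolation was planned after the data had been examined. Depth was between 45895097 and 65767802 counts with a median of 54422374.5. Over 24 pairs of libraries within groups, chi-square per gene was 18.9 to 423, so none was a repeat of another. The steps were tested on simulated data. Alternatives were DESeq2 1.42.0, median-of-ratios size factors, no filter on low counts, 1 fit of all groups, mitochondrial genes left out, a block for the start of the mouse number, other subsets of the SIT libraries, and leaving out each library in turn.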

Additional observations from a re-analysis of the deposited data

How the results depend on the processing

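Prkg2 was called lower in SIT in 11 of 14 alternatives. The count of members called in SIT was 1, and became 3 with all 8 SIT libraries, 3 with all 6 groups in 1 fit, 0 in the NT6 mice, 0 with all SIT libraries but the NT7.2 pair (chosen after seeing the data) and 0 to 3 when each library was left out, with 0 without NT6.305 and 3 without TG7.4.2. The other pathway genes called in SIT were 3, and became 7 with all 8, 12 with 1 fit, 8 in the NT6 mice and 0 to 4 with a library left out (0 without NT6.305). On the left, members called were 0 to 2 with a library left out (2 without TG9.2.2), and other pathway genes were 4 with DESeq2, 4 without the filter and 0 to 6 with a library left out, being 6 without TG7.3.2 or TG9.2.2, 4 without TG9.1.4, 1 without TG7.3.4 and 0 without TG9.2.4. On the right, which chose the panel, the count of members past the thresholds is no test and was 2 without the filter and 1 to 2 with a library left out (Nos3 joining without TG7.3.1 or TG9.1.1), and other pathway genes were 0 to 2, being 0 without TG9.2.1 or TG9.2.3 and 2 without TG9.1.3 or TG7.3.3. As a description of values that chose the panel, with a library left out the Nos1 difference on the right was between -0.67 and -0.60 and its right minus left change between -0.75 and -0.55. Between isolations Pde2a was called in 23 of 23 alternatives and Gucy1a2 in 22, all but ELE libraries alone. Pde5a was called lower in SIT in ELE libraries alone (-1.16) and ran up to 0.97 with all 20 libraries, and Nos1ap was called in sedentary libraries alone (-0.41).

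Signs turned in SIT for Nos1ap (-0.072 with 1 fit, -0.058 with all 8), Gucy1a2 (-0.027, -0.013, and -0.18 to 0.45 with a library left out), Prkg1 (-0.16, -0.15, and -0.030 in the NT6 mice) and Pde2a (0.0019 with all 8, 0.13 in the NT6 mice, 0.057 without the NT7.2 pair, -0.28 to 0.083 with a library left out). On the left they turned with a library left out for Nos1ap (-0.038 to 0.19), Pde2a (-0.13 to 0.12), Pde5a (-0.27 to 0.39) and Nos1 (-0.077 to 0.13, and -0.0089 with the block below), and on the right for Gucy1a2 (0.16 without TG9.1.3), Prkg2 (0.018 without TG7.3.3) and Pde2a (-0.025 without TG9.2.1). None of the values whose sign turned was called. The 1 fit held all 8 SIT libraries, so its SIT values and counts share that change of libraries with all 8. The cause of the turns was not tested.

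The start of the mouse number (TG7.3, TG9.1 and so on) was also used as a replicate block. In the 5 SIT libraries TG7.4 held ELE mice only, so the block left 1 ELE library, NT6.303, against NT6.305 and NT6.306. The log2 fold changes were then -1.97 for Pde5a and -1.55 for Prkg2, and they rest on that 1 ELE library. On the left and right the block moved no count of calls among members. Correlations of same-numbered libraries were 0.294, 0.00898 and 0.127 on the left and 0.192, -0.092 and -0.102 on the right (TG7.3, TG9.1 and TG9.2). The highest with another number were 0.0376, 0.138 and -0.0553 on the left and 0.134, 0.122 and 0.342 on the right. The same number was higher for TG7.3 on both sides and for TG9.2 on the left only. The main fits did not pair the mice by number, and this check cannot exclude a pairing. Nos3, at 13 to 89 counts, and Pde5a are the members most limited by depth.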
